A study of Mus musculus with 6 samples.

Results

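Interferon receptors and interferon-stimulated genes were examined in mast cells sorted from mouse skin. The set holds 51 genes of the 47643 in the deposited table: the 4 subunits of the type I and type II interferon receptors, 4 transcription factors that act below them, and 43 genes known to be induced by interferon. The members were taken by gene symbol from a written list, and each of the 51 symbols matched 1 row. RNA with poly(A) tails was sequenced from 6 libraries. The 3 embryonic libraries hold cells of E16.5 skin, described by the submitters as coming from hemogenic endothelium of the yolk sac and sorted as CD45+ F4/80- CD64- ckit+ ST2+. The 3 adult libraries hold skin mast cells that the submitters call definitive, sorted as CD45+ F4/80- CD64- ckit+ Fcer1+. Mice of both groups carried Cdh5CreERT2, a Cre recombinase driven by the endothelial gene Cdh5 and switched on by tamoxifen, and had received 4OHT at E7.5. The labels do not give the adult age, the strain, the number of animals behind a library, whether animals were pooled, or whether the Cre label was used in the sort. Age, described origin, the last marker of the gate and a Dispase step that took the epidermis off adult skin changed together, so they cannot be told apart.

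Interferons are secreted proteins that cells release on contact with viruses, bacteria or foreign nucleic acid. Type I interferons bind a receptor of Ifnar1 and Ifnar2, and interferon gamma, the type II interferon, binds a receptor of Ifngr1 and Ifngr2. Both receptors signal through Janus kinases to STAT proteins, which enter the nucleus alone or with Irf9 and raise the transcription of a large set of antiviral genes, the interferon-stimulated genes. Many of these genes are also transcribed at a low level without added interferon. Mast cells are tissue-resident cells of the immune system that store histamine and proteases in granules, and in skin they lie near the body surface, where pathogens enter.

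The libraries held 34122162 to 49813523 counts in genes. Levels are given in counts per 1e6 counts (CPM), scaled to library sizes with edgeR's TMM factors, and 3 counts in a library correspond to 0.0603 to 0.0850 CPM. Differences were tested in all 15111 genes that passed a filter on low counts, with edgeR's quasi-likelihood test and Benjamini-Hochberg adjustment over those genes, and a gene is said to be higher or lower where its adjusted p was under 0.05. By that rule 63.0% of the tested genes differed between the groups, 31.7% with higher adult and 31.2% with higher embryonic levels, so a single difference is common in these data. Fold changes are adult against embryonic unless stated otherwise, and errors of log2 fold changes are standard errors. The 10 mast cell markers summed to 124254 to 136103 CPM in the embryonic and 54751 to 57502 CPM in the adult libraries, and all 10 were detected in every library. The sum is carried by Cpa3, Cma1, Tpsb2 and Hdc, which were higher in embryonic cells, while Kit, Fcer1g and Mitf did not pass the test and Ms4a2 was 7.46-fold higher in adult cells. In bulk RNA, fewer cells of a type and less RNA per cell cannot be told apart.

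Type I interferon acts on promoters through the interferon-stimulated response element (ISRE), to which a complex that holds Stat2 and Irf9 binds. The letters GAAANNGAAA, on either strand, were searched in the 250 bases before each start of transcription, taken from RefSeq on GRCm38.p6. Windows existed for 39 members, and 16 of them (41.0%) held at least 1 match. The share was 3.46% of all 27025 genes with a window and 3.16% of the 10998 tested ones. Most members were listed because they are known to be induced by interferon, so this comparison is a description and no test of the list. The windows of 5 members are printed because they carry this shared feature and yet differ in the comparison of embryonic and adult cells. Trim30a, Gbp7 and Rsad2 were higher in adult cells, Ifitm2 was higher in embryonic cells, and Isg15 did not pass the test. Letters in capitals are matches to the ISRE pattern or its reverse complement, and each sequence runs 5′ to 3′ on the strand of its gene.
Isg15 (chr4:156200819-156201068, minus strand): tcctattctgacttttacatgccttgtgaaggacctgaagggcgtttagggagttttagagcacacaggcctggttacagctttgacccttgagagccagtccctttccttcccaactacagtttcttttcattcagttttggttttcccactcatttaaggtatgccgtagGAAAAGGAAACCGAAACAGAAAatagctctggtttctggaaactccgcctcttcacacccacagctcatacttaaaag
Trim30a (chr7:104465194-104465443, minus strand): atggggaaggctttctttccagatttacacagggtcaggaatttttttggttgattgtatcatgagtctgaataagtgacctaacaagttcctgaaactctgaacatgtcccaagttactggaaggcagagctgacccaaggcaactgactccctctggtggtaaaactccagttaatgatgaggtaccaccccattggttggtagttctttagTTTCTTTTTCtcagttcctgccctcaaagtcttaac
Gbp7 (chr3:142530086-142530335, plus strand): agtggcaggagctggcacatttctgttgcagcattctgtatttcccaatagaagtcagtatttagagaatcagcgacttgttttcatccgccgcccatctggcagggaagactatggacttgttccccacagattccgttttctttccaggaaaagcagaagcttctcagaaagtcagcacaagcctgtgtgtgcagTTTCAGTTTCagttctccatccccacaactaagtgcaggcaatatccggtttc
Rsad2 (chr12:26456453-26456702, minus strand): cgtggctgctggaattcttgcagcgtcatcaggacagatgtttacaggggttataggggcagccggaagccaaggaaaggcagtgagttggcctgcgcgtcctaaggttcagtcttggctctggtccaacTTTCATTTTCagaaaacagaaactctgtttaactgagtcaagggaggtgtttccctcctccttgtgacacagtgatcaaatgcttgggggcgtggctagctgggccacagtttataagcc
Ifitm2 (chr7:140955962-140956211, minus strand): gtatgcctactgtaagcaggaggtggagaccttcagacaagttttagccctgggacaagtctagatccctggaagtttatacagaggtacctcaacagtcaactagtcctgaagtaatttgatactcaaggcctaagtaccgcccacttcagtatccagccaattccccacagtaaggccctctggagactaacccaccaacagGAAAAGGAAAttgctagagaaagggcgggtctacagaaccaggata

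None of these 5 windows overlapped an exon of the deposited annotation. Counted from -1 at the last base before the start of transcription, Isg15 had 3 overlapping matches, the first beginning at -78 and the last at -66. The match began at -36 for Trim30a, at -53 for Gbp7, at -120 for Rsad2 and at -46 for Ifitm2. Trim30a has another RefSeq start with a window that held no match. At least 2 matches, counting overlapping ones, were found in 7 members (17.9%), against 0.200% of the tested genes with a window. Matches were present in 8 of 26 members that were higher in adult cells, in 1 of 3 that were higher in embryonic cells, in 5 of 7 that did not pass the test and in 2 of 3 that were not tested. The pattern TTCNNNGAA, which is its own reverse complement and describes the gamma-activated site of interferon gamma signalling, was present in 8 of the 39 members (20.5%) and in 6.98% of tested genes with a window. A match describes letters in these windows, and binding was not measured.

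Of the 51 members, 45 passed the filter and were tested. Adult cells had higher levels of 33 members, embryonic cells of 4 (Ifitm1, Ifitm2, Isg20 and Parp14), and 8 did not pass the test (Stat2, Isg15, Ifit2, Oas1a, Oas3, Mx1, Trim21 and Gbp3). The 33 make up 73.3% of the tested members, where 31.7% of all tested genes were higher in adult cells. The 4 make up 8.89%, where 31.2% of all tested genes were higher in embryonic cells. A difference of at least 2-fold was measured in 23 of the 33 and in 2 of the 4, and among all tested genes such differences covered 20.8% in the adult and 17.2% in the embryonic direction. The median log2 fold change was 1.26 over the tested members and 0.02 over all tested genes.

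The filter can favour genes that are high in 1 group, so the members were also counted by how they passed it. The filter's minimum was reached in all 6 libraries by 38 members, of which 29 were higher in adult cells, 4 were higher in embryonic cells and 5 did not pass the test. Of all genes that reached it in all 6 libraries, 30.8% had higher adult and 33.6% higher embryonic levels. Another 6 members (Ifit1, Oas1a, Oas3, Mx1, Xaf1 and Rtp4) reached it in some libraries of both groups. Mx2, 1 of the members that were higher in adult cells, reached it in adult libraries and in no embryonic one. The libraries of the groups did not overlap for 33 members with higher adult and 4 with higher embryonic values, against 35.5% and 34.5% of all tested genes, and 8 members overlapped.

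**Figure D1:**
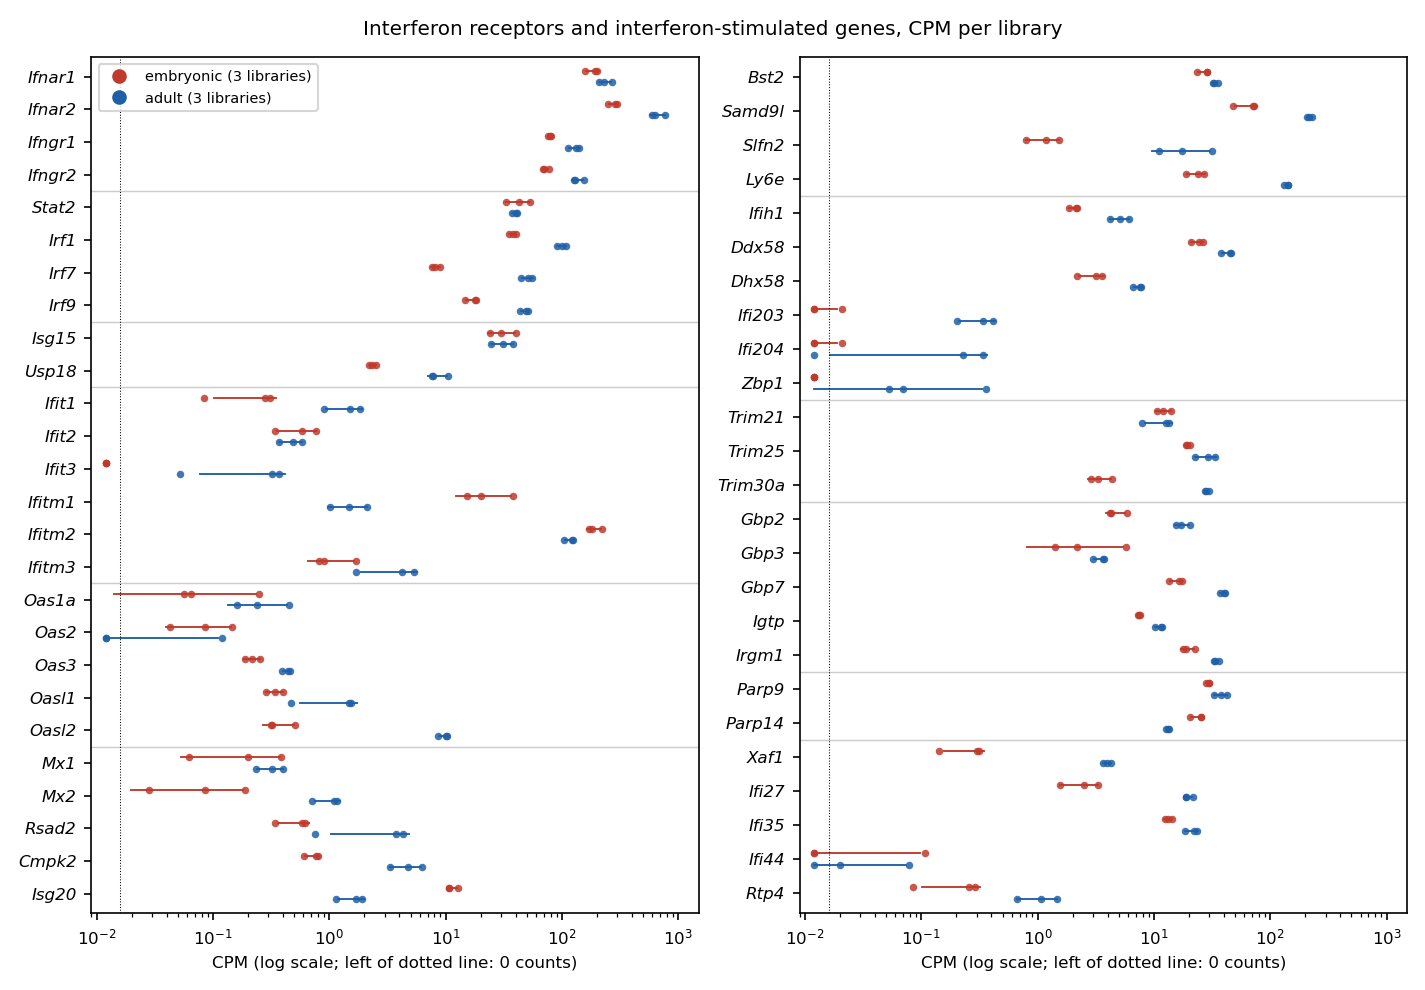
Level of each of the 51 members in every library, in CPM on a log scale, with lines for the mean ± SD of each group (3 embryonic libraries in red, 3 adult ones in blue) and a dotted line that separates libraries with 0 counts. Members are ordered by role; the groups lie apart for Irf7, Samd9l, Ly6e and Oasl2 and lie over each other for Isg15, Stat2 and Ifit2.

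**Figure D2:**
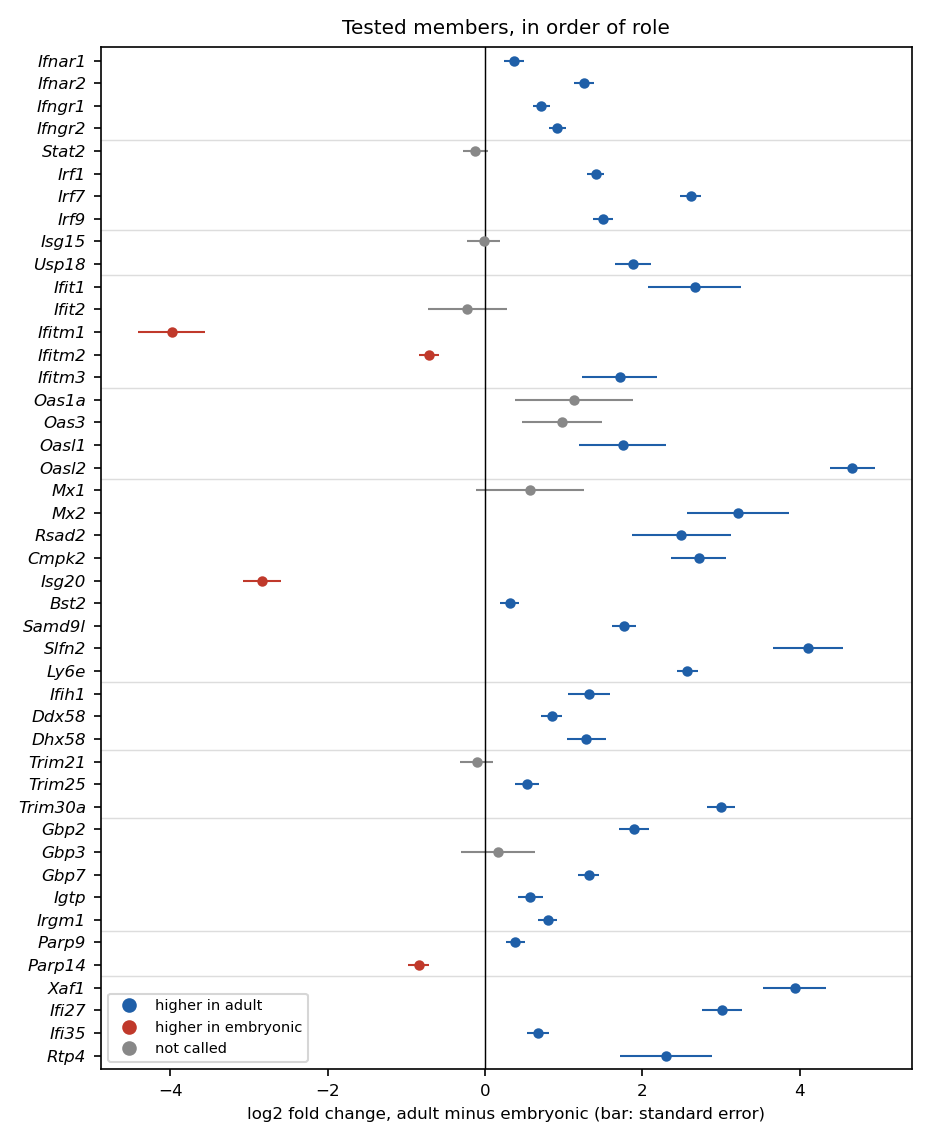
Log2 fold change, adult minus embryonic, of the 45 tested members in order of role, with bars for the standard error and colours for the call at an adjusted p of 0.05. Values run from -3.98 for Ifitm1 to 4.67 for Oasl2, and 33 members are coloured as higher in adult cells.

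Both interferon receptors were present in both groups, and all 4 subunits were higher in adult cells. Ifnar2, the subunit of the type I receptor that binds interferon with high affinity and exists in membrane and soluble forms not separated by these counts, lies at chr16:91372783-91405589 (GRCm38, as for all coordinates of genes below). Its level was 296, 288 and 250 CPM in the embryonic libraries and 590, 633 and 776 CPM in the adult ones. All adult libraries lay above all embryonic ones, a 2.40-fold difference (log2 fold change 1.26 ± 0.13, adjusted p = 1.6e-05). Of its exon bases, 9.46% are shared with the predicted gene Gm21970, and reads there were not counted for either gene.

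Ifnar1, the other subunit of the type I receptor (chr16:91485238-91507441), gave 157, 194 and 200 CPM in the embryonic and 210, 232 and 268 CPM in the adult libraries. The highest embryonic and the lowest adult library lay close together, and the difference was 1.29-fold (0.37 ± 0.13, adjusted p = 0.029). This call was lost without embryonic replicate 1 or 2 or adult replicate 2 or 3, with adjusted p-values of 0.12, 0.063, 0.058 and 0.11 in that order. Ifnar1 therefore shows the least certain difference of the 4 subunits.

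The interferon gamma receptor followed the same direction. Ifngr1, its ligand-binding subunit (chr10:19591949-19610229), measured 78.4, 75.8 and 80.0 CPM in the embryonic and 131, 141 and 113 CPM in the adult libraries, a 1.64-fold difference (0.72 ± 0.10, adjusted p = 0.00020). Ifngr2, its signalling subunit (chr16:91547072-91565169), measured 69.5, 70.3 and 77.2 CPM against 127, 154 and 128 CPM, or 1.89-fold (0.92 ± 0.11, adjusted p = 4.8e-05). Neither subunit's groups overlapped. Per kilobase of exon, a scale that allows genes to be compared, Ifnar2 stood at 83.5 CPM in the embryonic and 200.1 CPM in adult cells, while Ifnar1, Ifngr1 and Ifngr2 stood at 21.8 to 31.2 and at 40.3 to 45.1 CPM per kilobase.

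The 4 transcription factors did not move alike: Irf1, Irf7 and Irf9 were higher in adult cells and Stat2 did not pass the test. Irf7, which drives the second wave of type I interferon genes (chr7:141262706-141266481), measured 8.14, 9.01 and 7.64 CPM in the embryonic and 55.4, 51.5 and 44.5 CPM in the adult libraries. The adult level was 6.12-fold higher (2.61 ± 0.13, adjusted p = 1.8e-07), and the groups were far apart. Irf9, the DNA-binding partner of Stat2 (chr14:55603571-55610030), measured 14.7, 17.8 and 18.3 CPM against 51, 48.7 and 43.9 CPM, or 2.83-fold (1.5 ± 0.13, adjusted p = 4.6e-06). Irf1, an activator of interferon gamma targets (chr11:53770014-53778374), measured 34.9, 37.6 and 40.2 CPM against 100.1, 108 and 90.8 CPM, or 2.65-fold (1.41 ± 0.11, adjusted p = 2.6e-06). Both had adult libraries above every embryonic one.

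Stat2, which binds ISRE sites in a complex with Irf9 (chr10:128270576-128292849), measured 32.9, 43.1 and 52.8 CPM in the embryonic and 40.1, 37.2 and 41.1 CPM in the adult libraries. The adult values lay within the embryonic range, and the log2 fold change was -0.12 ± 0.16 (adjusted p = 0.52). Its sign turned to 0.011 without embryonic replicate 3. Of these partners, Irf9 was higher in adult cells and Stat2 did not pass the test.

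The genes induced by interferon did not form 1 block. The ubiquitin-like protein Isg15 (chr4:156199424-156200818) is one of the best-known targets of type I interferon, and its promoter window printed above carried 3 matches. It measured 24.1, 29.9 and 40.3 CPM in the embryonic and 24.5, 31.1 and 37.7 CPM in the adult libraries. These ranges coincided, with a log2 fold change of -0.02 ± 0.21 (adjusted p = 0.95). Usp18, the protease that removes Isg15 from proteins and holds back the type I receptor (chr6:121245906-121270917), measured 2.19, 2.52 and 2.34 CPM against 10.5, 7.80 and 7.66 CPM, a 3.69-fold higher adult level (adjusted p = 5.4e-05). Isg15 and Usp18 were chosen for display after their values were seen, as were the other members given by library below that lie outside the rule for named genes.

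The Ifit genes encode proteins that bind foreign RNA, and their levels were low in both groups. Ifit1 had a mean of 0.225 CPM in the embryonic and 1.42 CPM in adult cells, from 28 and 188 counts in all, and was 6.33-fold higher in adult cells (adjusted p = 0.0029). Ifit2 had means of 0.564 and 0.479 CPM with overlapping libraries (adjusted p = 0.72). Ifit3 was not tested: it held 0 counts in embryonic and 34 in the adult libraries, 11.2-fold higher if 3 counts are set for the embryonic group. The lower bound of its 95% exact interval was 8.64-fold. The adult counts were 16, 16 and 2 in replicates 1 to 3.

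The Ifitm genes encode small membrane proteins that hinder the entry of viruses, and the 3 of them in the set lie close together on chromosome 7. They differed in direction. Ifitm1 (chr7:140967221-140969825) measured 15.2, 20.1 and 38.3 CPM in the embryonic and 2.13, 1.02 and 1.47 CPM in the adult libraries. All embryonic values lay above the adult ones, 15.8-fold by the fit (log2 fold change -3.98 ± 0.43, adjusted p = 9.9e-05), and embryonic replicate 3 was the highest. Ifitm2 (chr7:140954839-140955961) measured 172, 180 and 223 CPM against 122, 104 and 125 CPM, 1.64-fold higher in embryonic cells (-0.71 ± 0.12, adjusted p = 0.00069). With 305 and 187 CPM per kilobase of exon in embryonic and adult cells, Ifitm2 was the most abundant member per length in embryonic cells, and Ifnar2 in adult cells.

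Ifitm3 (chr7:141009586-141010770) measured 0.902, 0.822 and 1.71 CPM in the embryonic and 5.37, 4.2 and 1.71 CPM in the adult libraries. The fit gave a 3.27-fold higher adult level (1.71 ± 0.48, adjusted p = 0.010), yet adult replicate 3 was no higher than embryonic replicate 3. Without adult replicate 1 the adjusted p was 0.053, and without both replicates numbered 3 the fold was 5.52. The higher adult values of Ifitm3 thus lay in adult replicates 1 and 2. Summed markers of several other cell types were also higher in those libraries than in adult replicate 3, as given below. A link was not tested. Reads that align to several places were not counted, so the values of members with near-identical copies, among them the Ifitm, Oas1, Ifi200, Gbp and Trim30 families, are uncertain.

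The 2′-5′ oligoadenylate synthetases make the second messenger that activates RNase L. The set holds 5 genes of the family: Oas1a, Oas2, Oas3, Oasl1 and Oasl2. Oasl2 (chr5:114896936-114912234) measured 0.322, 0.510 and 0.313 CPM in the embryonic and 10.3, 8.56 and 10.0 CPM in the adult libraries. This was the largest rise among the 45 tested members, 25.4-fold (4.67 ± 0.29, adjusted p = 6.1e-07), with 48 counts in all embryonic libraries and 1265 in all adult ones. Oasl1, a repressor of Irf7 translation, was 3.36-fold higher in adult cells (adjusted p = 0.019), with 1.47 and 1.52 CPM in adult replicates 1 and 2 and 0.474 CPM in replicate 3. Its call was lost without embryonic replicate 1 or 2 or adult replicate 1 or 2 (adjusted p-values of 0.052 to 0.076).

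Oas1a, Oas2 and Oas3 stayed near the limit of detection. Oas1a (17 and 36 counts in the embryonic and adult groups; adjusted p = 0.21) and Oas3 (28 and 57 counts; adjusted p = 0.12) did not pass the test, although all 3 adult libraries of Oas3 lay above the embryonic ones. Oas2 was not tested, with 12 counts in embryonic and 6 in the adult libraries. The ratio of its summed counts was 0.495, with a 95% exact interval from 0.152 to 1.43 that covers counting error alone, so no difference was detectable at this depth.

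Among 9 other antiviral effectors, 7 were higher in adult cells, Isg20 was higher in embryonic cells and Mx1 did not pass the test. Samd9l, a cytoplasmic protein that restricts viral translation (chr6:3372257-3399572), was the most abundant of them in CPM. It measured 47.9, 71.4 and 71.9 CPM in the embryonic and 206, 216 and 228 CPM in the adult libraries, a 3.40-fold difference (1.76 ± 0.16, adjusted p = 8.2e-06). Ly6e, a lipid-anchored surface protein (chr15:74955051-74959905), measured 27.1, 18.9 and 23.7 CPM against 142, 141 and 132 CPM, or 5.94-fold (2.57 ± 0.14, adjusted p = 2.3e-07). In both genes the adult libraries lay close together and well above the embryonic ones.

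Slfn2, of the Schlafen family (chr11:83065112-83070678), measured 1.52, 1.19 and 0.793 CPM in the embryonic and 31.5, 17.6 and 11.1 CPM in the adult libraries. The difference was 17.2-fold (4.10 ± 0.44, adjusted p = 8.1e-05), with a wide spread among the adult libraries. Without adult replicates 1 and 2 it was 9.57-fold (adjusted p = 0.00018).

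Isg20, an exonuclease that degrades RNA (chr7:78913424-78920396), ran the other way, with 10.7, 10.7 and 12.8 CPM in the embryonic and 1.93, 1.15 and 1.71 CPM in the adult libraries. Embryonic cells had 7.12 times the adult level (-2.83 ± 0.25, adjusted p = 5.9e-06). Rsad2, which encodes viperin, and Cmpk2, its neighbour on chromosome 12 (chr12:26442753-26456452 and chr12:26469204-26479835), were 5.63-fold and 6.57-fold higher in adult cells (adjusted p = 0.0063 and 8.2e-05). Adult replicate 2 was the lowest adult library for both, with 0.762 CPM of Rsad2 against 3.72 and 4.34 CPM in the other adult libraries.

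The Mx proteins are GTPases that trap viral components. Mx2 had means of 0.101 and 0.996 CPM, 9.31-fold higher in adult cells (adjusted p = 0.0016), on 14 and 131 counts. The fold was 15.4 without embryonic replicate 3. Of all genes that passed the filter through adult libraries alone, as Mx2 did, 96.3% were higher in adult cells. The call of Mx2 therefore adds little to its counts. Mx1, at 28 and 43 counts, did not pass the test (adjusted p = 0.48). Bst2, or tetherin, which holds budding virus at the cell surface, had 28.6, 23.6 and 28.8 CPM in the embryonic and 35.5, 32.4 and 32.6 CPM in the adult libraries. Its difference of 1.24-fold lay near the threshold (adjusted p = 0.043) and was lost when any 1 library was left out (adjusted p-values of 0.065 to 0.26), with RLE scaling, with DESeq2 and with the loosest filter on low counts (adjusted p = 0.054, 0.10 and 0.14).

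The RNA sensors of the RIG-I family all had higher adult levels. Ddx58, which encodes RIG-I, had means of 23.8 ± 2.83 (SD, n = 3) and 42.9 ± 4.29 CPM in the embryonic and adult cells, 1.80-fold (adjusted p = 0.00028). Ifih1, which encodes MDA5, was 2.49-fold and Dhx58, which encodes LGP2, 2.44-fold higher (adjusted p = 0.0016 and 0.0012). Their adult means of 5.15 and 7.32 CPM were below that of Ddx58.

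The remaining sensors in the set were almost absent. The DNA sensor family members Ifi203 and Ifi204 each held 1 count in all embryonic libraries and 41 and 27 in all adult ones, ratios of 40.6 (95% exact interval 6.89 to 1642) and 26.7 (4.41 to 1095). The adult counts of Ifi204 were 17, 10 and 0 in replicates 1 to 3, so adult replicate 3 overlapped the embryonic libraries. Zbp1, a sensor of Z-form nucleic acid, held 0 and 23 counts, 7.59-fold higher in adult libraries if 3 counts are set for the embryonic group. The lower bound of its 95% exact interval was 5.69-fold. Most of its level lay in adult replicate 1 (0.362 CPM against 0.0692 and 0.0526 CPM). These 3 were not tested.

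Of the ubiquitin ligases, Trim30a, which lowers signalling from Toll-like receptors (chr7:104409025-104465193), measured 2.86, 3.31 and 4.40 CPM in the embryonic and 27.3, 28.0 and 29.6 CPM in the adult libraries. The adult level was 8.01-fold higher (3.00 ± 0.18, adjusted p = 5.4e-07), and the adult libraries were nearly equal. Trim25, which activates RIG-I, was 1.45-fold higher in adult cells (adjusted p = 0.012), a call lost without embryonic replicate 2 (adjusted p = 0.060) or adult replicate 1 (adjusted p = 0.051). Trim21, an antibody receptor in the cytosol, had means of 12.3 ± 1.74 and 11.4 ± 2.98 CPM (SD, n = 3) and did not pass the test (adjusted p = 0.68).

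The interferon-induced GTPases attack the vacuoles in which pathogens live, and 4 of the 5 in the set were higher in adult cells. Gbp7 (chr3:142530342-142550149) measured 16.6, 17.3 and 13.4 CPM in the embryonic and 36.7, 39.8 and 41.1 CPM in the adult libraries, 2.49-fold (1.32 ± 0.13, adjusted p = 1.5e-05), and its groups lay apart. Of its exon bases, 11.3% are shared with the predicted gene Gm43802. Gbp2 was 3.71-fold, Irgm1 1.74-fold and Igtp 1.49-fold higher (adjusted p = 1.5e-05, 0.00033 and 0.0086).

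Gbp3 was the exception, at 2.17, 5.72 and 1.42 CPM in the embryonic and 3.64, 3.69 and 3.03 CPM in the adult libraries. Embryonic replicate 2 stood above all adult libraries and the other 2 embryonic ones below them. The log2 fold change was 0.16 ± 0.47 (adjusted p = 0.78), and leaving out embryonic replicate 2 gave a 1.86-fold higher adult level that did not pass the test (adjusted p = 0.062).

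The ADP-ribosyltransferases split. Parp14, a coactivator of Stat6, measured 25.3, 25.3 and 20.6 CPM in the embryonic and 13.6, 13.3 and 12.8 CPM in the adult libraries, 1.79-fold higher in embryonic cells (-0.84 ± 0.13, adjusted p = 0.00035). Parp9, which lies nearby on chromosome 16 (chr16:35938470-35972605), was 1.31-fold higher in adult cells (adjusted p = 0.018). That call was lost without any 1 of the embryonic replicates or without adult replicate 3 (adjusted p-values of 0.053 to 0.075).

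Of 5 other interferon-stimulated genes, 4 were higher in adult cells. Xaf1, which promotes cell death, was 15.3-fold higher (means of 0.252 and 3.96 CPM, adjusted p = 1.7e-05), and Ifi27, a membrane protein, 8.06-fold (2.45 and 19.8 CPM, adjusted p = 6.5e-06). Rtp4, a chaperone of receptors, was 4.92-fold higher on 29 and 143 counts (adjusted p = 0.0063), and Ifi35 was 1.60-fold higher (adjusted p = 0.0021), with 16.8% of its exon bases shared with Gm11626. Ifi44 held 5 counts in embryonic and 4 in the adult libraries and was not tested (ratio 0.792, 95% exact interval 0.157 to 3.68).

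Per length, the members differed widely in level. Of the 51, 24 lay below 1 CPM per kilobase of exon in embryonic cells and 18 in adult cells, while 9 and 14 lay at 10 or more. The median over the 51 was 1.69 CPM per kilobase in embryonic and 4.11 CPM per kilobase in adult cells. For the 45 tested members alone it was 2.74 and 5.55 CPM per kilobase. Over all tested genes the medians were 3.25 and 3.33 CPM per kilobase, so the 2 groups of libraries differed little there. The well-known antiviral genes Ifit1, Ifit2, Ifit3, Oas1a, Oas2, Oas3, Mx1, Mx2 and Rsad2 all stayed below 1 CPM per kilobase in both groups. Isg15, Bst2 and Samd9l were above 10 in both groups, and Ly6e was above 10 in adult cells only.

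**Figure D3:**
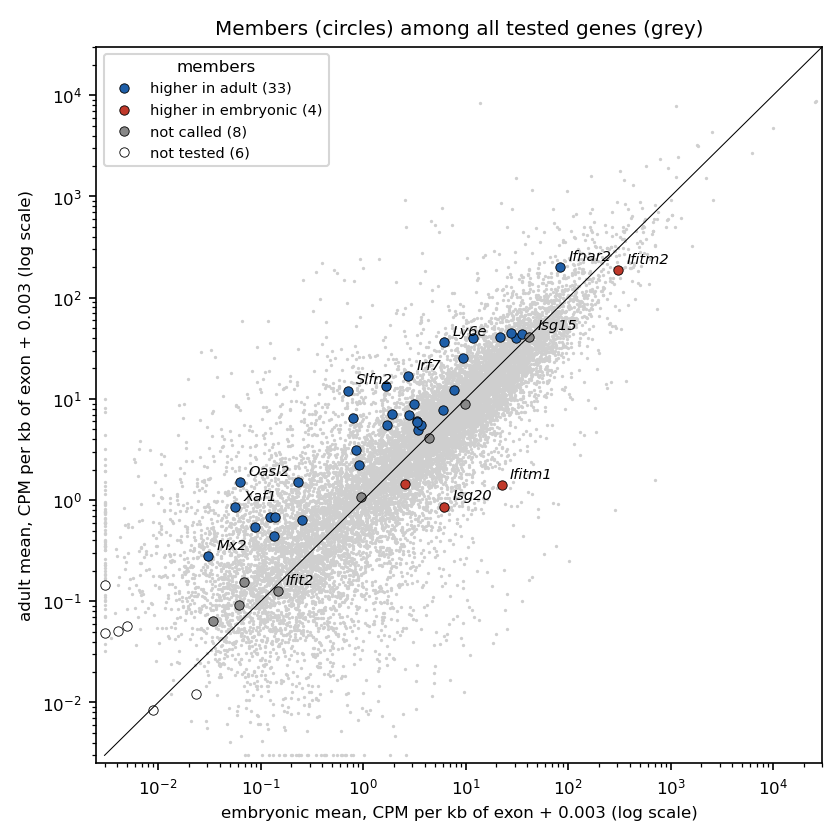
Mean adult against mean embryonic level of the 51 members (circles) and of all tested genes (grey dots), in CPM per kilobase of exon plus 0.003, both axes log. The 33 blue members lie above the line of equality, the 4 red ones below it, and Isg15 lies on it at 41.6 and 41.2 CPM per kilobase before the constant is added.

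Libraries within a group were not equal for the members. Embryonic replicate 3 was the highest embryonic library for 27 of 45 tested members (60.0%), against 36.0% of all tested genes, and adult replicate 1 was the highest adult library for 21 of 45 (46.7%), against 32.0%. The spread within groups was nevertheless like that of other genes: the median coefficient of variation over tested members was 15.4% in embryonic and 12.2% in adult libraries, against 14.3% and 13.7% over all tested genes.

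Markers of other cell types moved with the groups, although the gate of both groups took CD45+ F4/80- CD64- ckit+ cells. The 8 markers of dendritic and Langerhans cells, among them Cd207 and H2-Aa, summed to 4.53 to 8.07 CPM in embryonic libraries and to 530.2, 530.9 and 221 CPM in adult replicates 1, 2 and 3, and 6 of the 8 were higher in adult cells. Clec9a held at most 3 counts in the embryonic group. The 12 macrophage or monocyte markers summed to 18.5 to 48.4 CPM and to 165 to 252 CPM, with 9 of 10 tested markers higher in adult cells. The adult sum is carried by Lyz2 and Cd68, with adult means of 124 and 73.8 CPM. Csf1r, at means of 3.77 and 3.97 CPM, did not pass the test (adjusted p = 0.86), and Adgre1 had an adult mean of 2.98 CPM. The 7 markers of plasmacytoid dendritic cells, known for abundant type I interferon, summed to 30.4 to 37.4 CPM and 51.4 to 97.8 CPM. That sum is carried by Bst2, itself a member, by Tcf4 and by Irf8. Klk1 was at 0 in all libraries, and the defining marker Siglech was at 0.167 to 0.601 CPM in the embryonic and 0.0789 to 0.181 CPM in the adult libraries.

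The other lists moved too. Summed B or plasma cell markers were at 7.04 to 8.51 CPM in the embryonic and 274 to 296 CPM in the adult libraries, where the adult sum was almost all Ighm. The embryonic sum was almost all Cd79b (6.97 CPM), which was higher in embryonic cells and had 904 counts in the embryonic and 7 in the adult group, and Ms4a1 held no count. Keratinocyte markers were at 51.9 to 521 CPM, highest in embryonic replicate 3, against 18.6 to 41.5 CPM. Fibroblast markers were at 552 to 683 CPM against 91.4 to 504 CPM, erythroid markers at 139 to 322 CPM against 3.29 to 10.4 CPM, and endothelial markers at 25.7 to 32.7 CPM against 4.03 to 8.75 CPM. T, NK or innate lymphoid markers were at 40.5 to 42.4 CPM against 89.8 to 105 CPM. The higher adult sum came from Il7r (14.8 and 87.2 CPM), while Nkg7 and Trac were 3.78-fold and 3.63-fold higher in embryonic cells, and Ncr1 and Klrb1c were at 0 in both groups. Basophil markers were at 720 to 900 CPM against 390 to 487 CPM, and neutrophil markers were under 1 CPM in every library. The part of these cells in the members' levels was not tested.

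Adult replicate 3 held 0.417 times the dendritic marker level of the mean of adult replicates 1 and 2, 0.665 times the macrophage level and 0.573 times the plasmacytoid dendritic cell level. Of the other lists with higher adult sums, T, NK or innate lymphoid markers were at 0.917 and B or plasma cell markers at 1.08 times that mean. Fibroblast markers, not higher in adult libraries, were at 0.193 times. For the 33 members that were higher in adult cells the median of the same ratio was 0.995. It lay between 0.75 and 1.25 for 27 of them, under 0.75 for Slfn2 (0.453), Ifitm3 (0.357) and Oasl1 (0.317), and above 1.25 for Ifnar2 (1.27), Cmpk2 (1.54) and Rsad2 (1.94). In a fit with adult replicate 3 as the single adult library, its spread was assumed to be like that of the embryonic group. The median log2 fold change of the tested members was then 0.95. Adult replicate 3 still held 221 CPM of dendritic and 165 CPM of macrophage markers, against at most 8.07 and 48.4 CPM in embryonic libraries. This fit therefore does not take RNA of these markers out of the comparison, and the part of other cells was not tested.

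**Figure D4:**
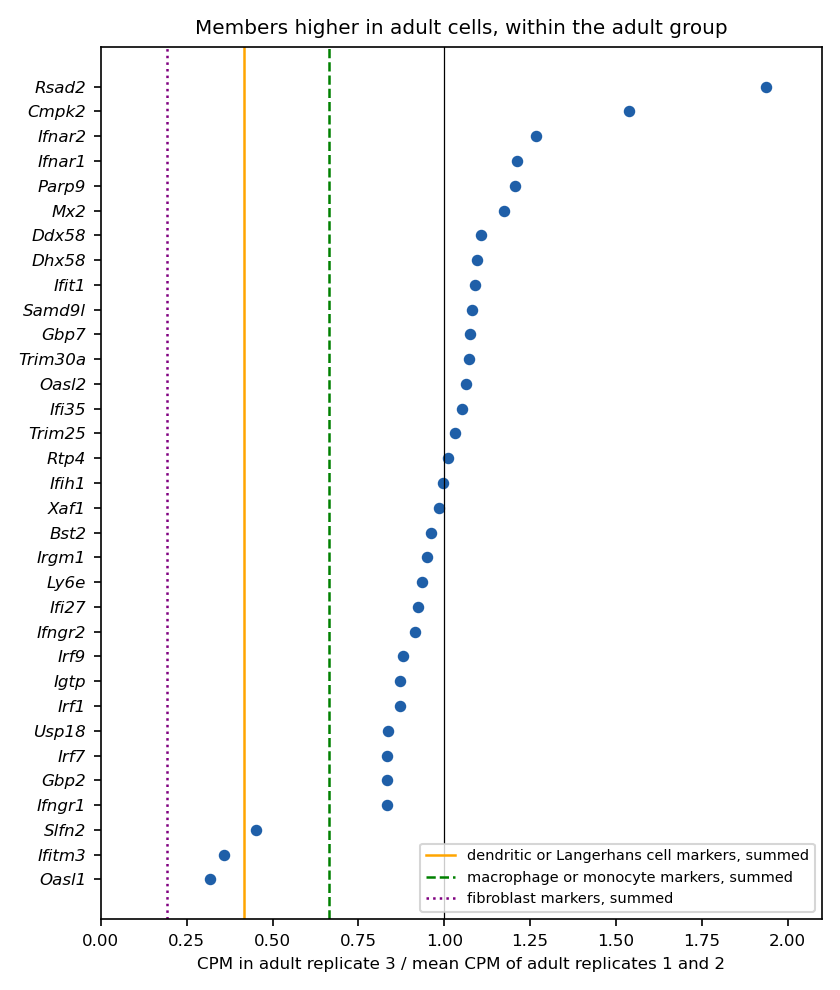
Ratio of the CPM in adult replicate 3 to the mean CPM of adult replicates 1 and 2 for the 33 members that were higher in adult cells (points), with the same ratio for summed markers of 3 other cell types (vertical lines). Of the 33 members, 27 lie between 0.75 and 1.25, and Ifitm3 and Oasl1 lie below the dendritic or Langerhans cell line at 0.417.

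Another 94 genes of the interferon pathway, outside the set, were read in the same fit. Of these, 63 were tested, and adult levels were higher for 34 and embryonic levels for 11 (54.0% and 17.5% of the tested ones, with all tested genes at 31.7% and 31.2%). Jak1, the kinase shared by both receptors, was 2.08-fold higher in adult cells (350 ± 44.7 and 729 ± 39.8 CPM, SD, n = 3, adjusted p = 3.0e-05), and Jak2, which serves the interferon gamma receptor, 1.65-fold (adjusted p = 0.00034). Tyk2, which serves the type I receptor, was 1.36-fold higher in embryonic cells (155 ± 8.54 and 114 ± 3.26 CPM, adjusted p = 0.0018). Stat3 was 2.61-fold higher in adult cells (adjusted p = 3.9e-06).

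Of 8 negative regulators, 6 were higher in adult cells and 1 in embryonic cells (75.0% and 12.5%, with all tested genes at 31.7% and 31.2%). The inhibitors of Janus kinases Socs1 and Socs3 were 8.61-fold and 33.5-fold higher in adult cells, at means of 9.12 ± 3.42 and 78.7 ± 13.7 CPM for Socs1 and 2.52 ± 1.5 and 84.8 ± 13.0 CPM for Socs3 (adjusted p = 2.0e-05 and 0.00011). The phosphatase Ptpn1 was 1.86-fold higher in adult cells (adjusted p = 5.4e-05). Ptpn2, a phosphatase of Jak1, was 2.18-fold higher in embryonic cells (adjusted p = 9.1e-06).

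Genes that lead to interferon production differed in both directions. Of 11, embryonic levels were higher for 5 (45.5%) and adult levels for 4 (36.4%), shares not far from those of all tested genes (31.2% and 31.7%), and 2 did not pass the test. Tmem173, which encodes the adaptor STING, had means of 131 ± 12.3 CPM in the embryonic and 57.5 ± 4.46 CPM in adult cells, 2.28-fold higher in embryonic cells (adjusted p = 8.3e-06). The Toll-like receptor adaptor Ticam1 and the kinase Ikbke were 2.13-fold and 1.89-fold higher in embryonic cells (adjusted p = 0.00014 and 0.00022). Higher in adult cells were Irf5 (1.75-fold, adjusted p = 0.0013), Myd88 (1.41-fold, adjusted p = 0.0015) and Irf8. Irf8, a transcription factor abundant in dendritic cells and also among the markers above, was 60.9-fold higher and 21.5-fold higher without adult replicates 1 and 2 (adjusted p = 0.00030 and 1.5e-05).

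Transcripts of interferons themselves were hardly present. Of 21 interferon genes, 18 had 0 counts in all embryonic libraries and 17 in all adult ones, and apart from Ifnz no interferon gene held more than 4 counts in a group (Ifnb1 in the adult libraries). Ifnz was tested, at 0.107, 0 and 0.104 CPM in the embryonic and 0.382, 0.669 and 0.579 CPM in the adult libraries, 7.05-fold higher in adult cells (adjusted p = 0.0093). It passed the filter through adult libraries alone, and of all genes that did so 96.3% were higher in adult cells, so the call adds little to its counts of 10 and 70. Without adult replicates 1 and 2 the adjusted p was 0.089. Of the receptor for interferon lambda, Il10rb, a subunit shared with the receptor for interleukin 10, was 2.98-fold higher in adult cells (adjusted p = 1.6e-06), with 14.9% of its exon bases shared with Gm21970. Ifnlr1, its specific subunit, was not tested, at means of 0.189 and 0.0263 CPM.

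Among 41 further interferon-stimulated genes outside the set, 34 were tested, with higher adult levels for 18 and higher embryonic levels for 4. These are 52.9% and 11.8% of the tested ones, where all tested genes stood at 31.7% and 31.2%. The smallest adjusted p-values in the adult direction were those of Lgals3bp (28.4-fold, 1.6e-07), Parp12 (5.99-fold, 4.2e-07) and Ifi47 (9.27-fold, 7.2e-06), and in the embryonic direction those of Slfn5 (5.46-fold, 8.8e-05), Slfn9 (2.40-fold, 0.00010) and Uba7 (2.29-fold, 0.00011). Uba7 is the enzyme that starts the attachment of Isg15 to proteins. Slfn5 and Slfn9 were thus higher in embryonic cells, and Slfn2 of the same family was higher in adult cells.

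Of 6 genes known as targets of interferon gamma, 3 were tested. Ciita, the activator of MHC class II genes, held 3 counts over the embryonic group and 454 over the adult group, a ratio of summed counts of 149.9 (95% exact interval 51 to 729, counting error alone). All 3 embryonic counts came from embryonic replicate 3, and Ciita passed the filter through adult libraries alone, so its adjusted p of 9.1e-05 adds little to these counts. The fitted fold moved from 130.2 to 1126 without embryonic replicate 3, to 86.6 without embryonic replicate 1 and to 57.2 without adult replicates 1 and 2. Cxcl9 and Cxcl10 did not pass the test (adjusted p = 0.072 and 0.86). Ciita is transcribed strongly in dendritic cells, whose markers are given above.

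**Figure D5:**
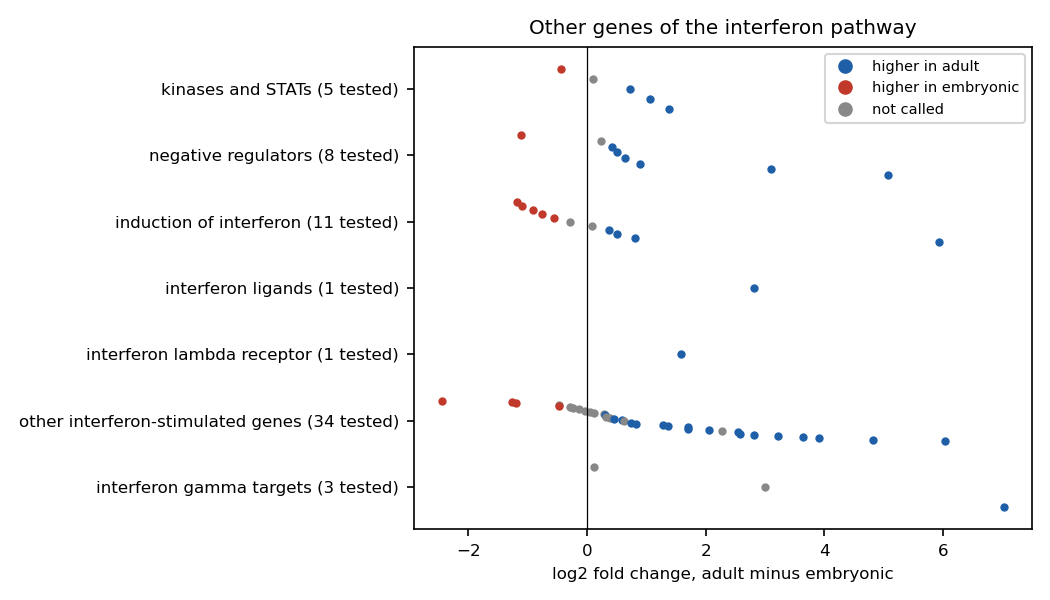
Log2 fold change, adult minus embryonic, of 63 tested pathway genes outside the set, 1 point per gene, by list, with colours for the call at an adjusted p of 0.05. Genes that lead to interferon production lie on both sides of 0, and Ptpn2 is the 1 negative regulator of 8 that was higher in embryonic cells.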

How the data were processed

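RNA of sorted skin mast cells was measured in 3 embryonic and 3 adult libraries. The authors deposited a table of counts of sequenced reads, 1 row a gene. Per the file headers it was made by featureCounts 1.5.0-p1 over the exons of GENCODE M9, without regard to strand and ignoring reads marked as duplicates, and by its default options multi-mapped reads and reads shared between genes were dropped. Per the submitters' processing notes, STAR and GRCm38 (mm10) were used. No source used here gives the STAR version or says that duplicates were marked. Transcripts from the opposite strand cannot be separated in such counts. Ignoring duplicates can cap abundant genes and understate their folds. The table's exon length, another deposited value, was used as given. Per the labels' protocols, full-length cDNA was amplified by PCR. Without molecular identifiers, intervals and floors cover counting error only.

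Symbols came from GENCODE M21 by gene ID (47224 matched, 419 did not). Coordinates of genes are those of the table and of promoter windows those of RefSeq. Of the sample columns, 0 belonged to other samples. The labels do not say that replicates came from separate animals, so the p-values rest on a spread between libraries that may be technical. Chi-square per degree of freedom between libraries of a group was 38.5 to 98.8, above counting noise, and each was counted as 1 replicate.

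Counts were fitted with edgeR 4.0.16 in R 4.3.3 (TMM scaling, filterByExpr with its minimum count of 10, robust quasi-likelihood fit, Benjamini-Hochberg over 15111 genes, threshold 0.05). The estimated biological variation between libraries was 22.5%. All tested genes had a median log2 fold change of 0.024 with TMM and RLE and 0.044 with upper quartile scaling. A standard error is the log2 fold change divided by the square root of F. The script was tested on simulated data. Values in every library are given for the receptors, the transcription factors and members changed at least 2-fold with at least 20 CPM in the higher group. In the pathway lists, the kinases and STATs and the 3 smallest adjusted p-values per direction and list are named. Some genes that this rule names are not reported here. The members and lists were chosen with earlier results of these data known.

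Alternatives were RLE and upper quartile scaling, 2 other filters on low counts, DESeq2 1.42.0, limma-voom (limma 3.58.1), a fit without robust estimation, a replicate block, stricter thresholds, and fits without each library and without both replicates numbered 3. A fit without adult replicates 1 and 2 was added after the data were seen.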

Additional observations from a re-analysis of the deposited data

How the results depend on the processing

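In the main fit, 33 of 45 tested members (73.3%) and 31.7% of all tested genes were higher in adult cells. Other scalings, filters and tools, and fits that kept at least 2 libraries per group, gave 28 to 36 members in the adult direction. They gave 4 in the embryonic direction, and called 8509 to 10500 of all genes in either direction. The number of tested genes differed between settings. Leaving out each replicate gave 30 to 34 and 4 members, medians of 1.25 to 1.32, 8796 to 9221 called genes, and 31 to 34 and 11 to 12 pathway genes. A 2-fold minimum left 5744 of all genes, 2 members higher in embryonic cells, and 21 adult and 6 embryonic pathway genes.

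The replicate block gave 31 and 4 members and 8848 genes in all. Same-numbered libraries deviated from their group means with correlations of -0.0916, -0.0954 and -0.0992, so the numbers were not taken to pair them. Under the block the calls of Oasl1 and Bst2 were lost (adjusted p = 0.072 and 0.051).

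Members that did not pass the test turned sign when libraries were left out. Log2 fold changes ran from -0.30 (without embryonic replicate 1) to 0.022 (without both replicates numbered 3) for Stat2, from -0.20 to 0.27 for Isg15, from -0.59 to 0.0058 for Ifit2, from -0.24 to 0.10 for Trim21 and from -0.22 to 0.89 for Gbp3. Isg15 was at 0.0026 with at least 1 CPM in 3 libraries. The cause was not tested. Without adult replicates 1 and 2, in a fit with fewer samples, calls were lost for Ifitm3 and Oasl1, whose folds fell to 1.5 and 1.39 (adjusted p = 0.46 and 0.68), and for Bst2, Igtp and Rtp4, whose folds were 1.22, 1.37 and 5.0 (adjusted p = 0.25, 0.17 and 0.051). Oas1a, Mx1 and the 6 untested members had few counts, so differences in them were hard to detect.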
